A study of Mus musculus with 4 samples.

Results

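The 7 genes described here mark memory B cells or act in their formation: Nt5e, Cd80, Pdcd1lg2, Tle3, Hhex, Zeb2 and Ski. They were taken by name, and all 7 were found among 21887 protein-coding genes of the mouse annotation. H3K27me3 was mapped over them by CUT&Tag, in which an antibody brings a transposase to a histone mark and the DNA around it is cut and tagged. There were 4 libraries of sorted germinal center B cells from the spleen of C57BL/6 mice, 2 from mice with a B-cell knockout of Kdm6b (KO) and 2 from wild type mice (WT), each from its own mouse per the series description. All mice had received sheep red blood cells as antigen with a boost on day 5, and the spleens were taken on day 12. Pre-plasma is a further term in the title of the series, and no sort markers for it are given. The sources used here do not give the Cre line, the deleted part of Kdm6b, or the age and sex of the mice.

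Memory B cells leave the germinal center as long-lived resting cells that respond quickly to a second encounter with antigen. In the mouse, the surface proteins CD73, CD80 and PD-L2 divide them into subsets, and the homeodomain factor Hhex acts with the corepressor Tle3 in their formation. H3K27me3 is laid down by Polycomb repressive complex 2 and goes with gene silencing, while the demethylase Kdm6b (JMJD3) takes the methyl groups off again. The comparison asks where over these genes the mark differs when the enzyme is lost from B cells.

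The 7 genes fell into 3 states. Peaks lay at the start of Nt5e in every library, at the start of Tle3 in every library but WT replicate 2, and over 39.2% to 93.7% of the Ski gene body, short peaks lay inside Zeb2, and the starts of Cd80, Pdcd1lg2 and Hhex had none in any library. Coverage of the start was higher in both KO libraries than in both WT libraries at Nt5e and Tle3. That order held at 14.6% of all gene starts with coverage, and the reverse at 2.41%. Neither difference passed the test over all gene ends.

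Promoters rich in the letters CG stood both inside and outside peaks. A promoter here is the RefSeq sequence (assembly GRCm38.p6, the same as mm10) from 250 bases before to 50 after a gene's start, and all 7 genes had one. The first 2 are shown because both are rich in CG, yet one lay inside peaks in every library and the other was far from any peak. Capitals mark each CG, which reads the same on both strands.
Nt5e (chr9:88327359-88327658, plus strand): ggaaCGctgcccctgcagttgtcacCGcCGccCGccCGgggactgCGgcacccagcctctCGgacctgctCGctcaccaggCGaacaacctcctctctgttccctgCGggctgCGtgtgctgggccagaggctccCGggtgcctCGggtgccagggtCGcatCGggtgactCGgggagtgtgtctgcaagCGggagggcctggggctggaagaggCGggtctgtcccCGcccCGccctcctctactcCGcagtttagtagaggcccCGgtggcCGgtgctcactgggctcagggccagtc
Hhex (chr19:37434591-37434890, plus strand): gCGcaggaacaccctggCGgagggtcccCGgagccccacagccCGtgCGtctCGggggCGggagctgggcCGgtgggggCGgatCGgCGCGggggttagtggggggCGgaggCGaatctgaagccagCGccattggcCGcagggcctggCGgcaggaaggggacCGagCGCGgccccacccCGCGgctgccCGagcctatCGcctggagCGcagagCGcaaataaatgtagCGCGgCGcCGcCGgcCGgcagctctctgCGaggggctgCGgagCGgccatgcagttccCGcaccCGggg
The Nt5e sequence held 23 CG, a count reached by 21.5% of 32851 promoters, and was covered to 100% in all 4 libraries. The Hhex sequence held 37, reached by 5.58% of promoters, and the nearest peak was 58.1 and 59.1 kb away in KO and 57.7 kb away in each WT library. The Cd80 and Pdcd1lg2 promoters held 3 CG each, a count reached by 76.7% of promoters, and had no coverage in any library. Of all promoters with under 5 CG, peaks met 14.4% and 22.1% in KO and 20.4% and 11.3% in WT. Of those with 20 or more CG, they met 40.5% and 54.4% in KO and 46.9% and 30.0% in WT.

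The next pair was picked because both KO libraries covered more of it than both WT libraries. No share of all promoters with this order is given here. In the 4000 bp around gene starts, it held at 14.6% of those with coverage. By that measure the genotypes overlapped at the Ski start. Capitals mark the bases that lay inside peaks of both KO libraries and of neither WT library.
Tle3 (chr9:61372116-61372415, plus strand): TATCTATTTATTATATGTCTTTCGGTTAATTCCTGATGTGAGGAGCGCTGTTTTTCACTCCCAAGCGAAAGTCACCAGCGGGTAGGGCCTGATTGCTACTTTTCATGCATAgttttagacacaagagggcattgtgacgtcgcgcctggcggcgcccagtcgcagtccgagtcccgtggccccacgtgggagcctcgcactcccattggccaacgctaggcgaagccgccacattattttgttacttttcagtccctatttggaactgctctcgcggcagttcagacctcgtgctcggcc
Ski (chr4:155222486-155222785, minus strand): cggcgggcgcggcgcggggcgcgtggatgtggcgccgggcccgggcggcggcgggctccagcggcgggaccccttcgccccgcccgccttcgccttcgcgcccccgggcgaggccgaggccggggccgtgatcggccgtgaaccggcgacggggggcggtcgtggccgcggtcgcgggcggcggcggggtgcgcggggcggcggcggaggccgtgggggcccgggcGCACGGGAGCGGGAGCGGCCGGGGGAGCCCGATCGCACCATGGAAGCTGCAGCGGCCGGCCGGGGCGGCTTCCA
Of the Tle3 sequence, 100% was covered in each KO library, against 63% in WT replicate 1 and 0% in WT replicate 2, so 111 bases were covered in KO alone. Of the Ski sequence, 30.7% and 24.7% were covered in KO, against 0% in each WT library, which left 74 bases covered in KO alone. The Tle3 promoter held 21 CG and the Ski promoter 59, counts reached by 24.8% and 0.1% of promoters.

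The libraries differed in how much of the genome their peaks covered, which touches every value that follows. The 2 KO lists spanned 144 and 236 Mb and the 2 WT lists 213 and 101.4 Mb, so KO replicate 2 was broadest and WT replicate 2 narrowest. The main results are therefore also given after every list was reduced to equal covered length. The reduced lists still differed in peak width, with medians of 1453 and 4337.5 bp in KO and 3425 and 861 bp in WT. The labelled cell type was checked by its own genes. Bcl6, S1pr2, Gcsam and Mef2b, which germinal center B cells use, had no coverage at either end in any library, while 8 of the 22 ends of all 11 such markers had coverage. Among these, the higher-coordinate end of Ms4a1, which encodes CD20, had 33.5% and 41.85% in KO and 0% and 14.3% in WT. That of Cd79b, a subunit of the B cell receptor, had 0% and 34.75% in KO and 0% in each WT library. An end was called marked where peaks covered at least 25% of its window. Of 4 plasma cell genes, 2 and 4 starts were marked in KO and 2 in each WT library. None of these genes was marked at its other end in any library. Of all gene ends, with starts counted among them, 22.6% and 33.1% were marked in KO and 28.8% and 17.3% in WT. A share for starts alone is not given here. The ends of 6 T cell genes and 6 myeloid genes were covered in at least 1 library at 12 of 12 and 11 of 12. Among them was the Cd8a gene end, covered in WT replicate 1 alone (55.15%). For scale, 52.5% of all 43774 gene-end windows had no coverage in any library. Each library holds many cells, so fewer cells carrying the mark and less of the mark per cell cannot be told apart.

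**Figure D1:**
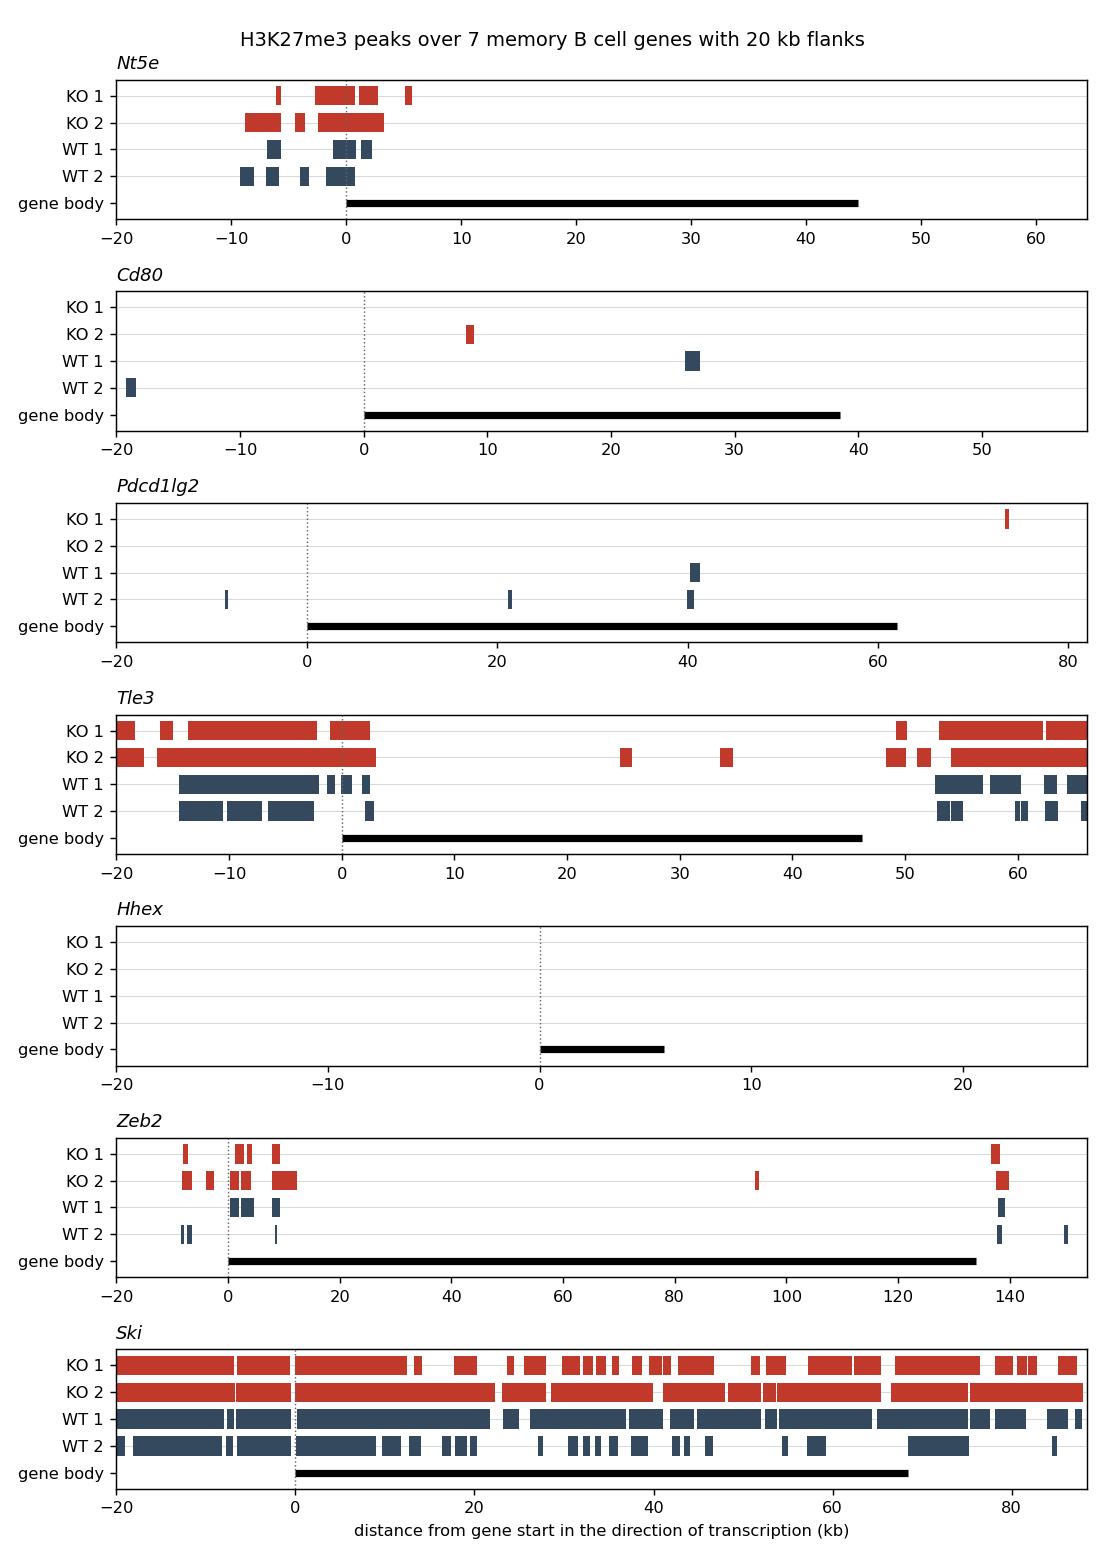
H3K27me3 peaks of the 2 KO libraries (red) and 2 WT libraries (dark) over each gene body (black) with 20 kb to each side, against distance from the gene start in kb. Peaks ran along the whole length of Ski, densely in KO replicate 2 and WT replicate 1 and with wide breaks in WT replicate 2. Hhex had no peak in any library. The coverage at Nt5e and Tle3 stood mostly near the start and in the flanks, with short peaks deeper inside Tle3 in KO replicate 2.

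Among the surface molecules, Nt5e encodes CD73, an enzyme that makes adenosine from AMP outside the cell. The gene lies on chromosome 9 at 88327609 to 88372089 in mm10 (gene ID 23959). In the 4000 bp centred on its start, peaks covered 90.8% and 100% in the KO libraries, against 68.5% and 62.55% in the WT libraries. The groups did not overlap, with KO above WT, as at 14.6% of gene starts with coverage. Mean coverage was 95.4% ± 6.51 in KO, against 65.5% ± 4.21 in WT (SD, n = 2). The difference was 29.9 points with an SE of 6.00 and a 95% interval of 10.6 to 49.2, and the limma adjusted p over 20791 gene-end windows was 0.907. The difference was larger than the spread within either genotype but did not pass the test.

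The KO excess at Nt5e lay beside the start, not on it. The base at the start was covered in all 4 libraries. With positions upstream of the start given as negative, the peak over it ran from -2.71 to 0.727 kb in KO replicate 1 and from -2.44 to 3.26 kb in KO replicate 2. It ran from -1.14 to 0.856 kb in WT replicate 1 and from -1.74 to 0.757 kb in WT replicate 2. Bases covered in both KO and neither WT came to 1312 bp in 3 stretches, of which the longest, 692 bp, ran from -2.44 to -1.745 kb. None were covered in both WT and neither KO. With 1000 bp to each side in place of 2000 bp, coverage was 86.35% and 100% in KO and 92.8% and 87.85% in WT, so the groups overlapped and the difference was 2.85 points. At that width the KO pair lay above the WT pair at 13.2% of gene starts with coverage. At equal covered length the 4000 bp window had 68.2% and 100% in KO and 50.025% and 62.55% in WT, a difference of 27.8 points. Inside the gene the last peak ended 5.70 and 3.26 kb from the start in KO and 2.28 and 0.757 kb from it in WT. Of the whole body, 6.61% and 7.34% were covered in KO and 4.21% and 1.70% in WT, and the gene end had 0% in every library.

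Cd80 encodes a ligand of CD28 and CTLA-4 on T cells, and Pdcd1lg2 encodes PD-L2, a ligand of PD-1. Both ends of each gene had 0% in all 4 libraries, as did 52.5% of 43774 gene-end windows. Cd80 (chromosome 16, 38457430 to 38495958) had 1 short peak in its window of body and 20 kb flanks in each of 3 libraries, each at another place, and none in KO replicate 1. These were 607 bp long in KO replicate 2, 1151 bp in WT replicate 1 and 801 bp in WT replicate 2. Pdcd1lg2 (chromosome 19, 29410919 to 29472927) had 0% of its body covered in both KO libraries, against 1.68% and 2.06% in the WT libraries. The WT peaks shared 500 bp about 40.2 to 40.7 kb inside the gene. This was the single place over the 7 genes where both WT libraries and neither KO library had coverage beyond 180 bp. The difference over the body was -1.87 points (SE 0.873, limma adjusted p = 1, 13805 bodies tested), and this order, with the KO pair below the WT pair, held at 2.75% of bodies with coverage. The reverse order held at 12.3% of them, Nt5e and Tle3 included.

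**Figure D2:**
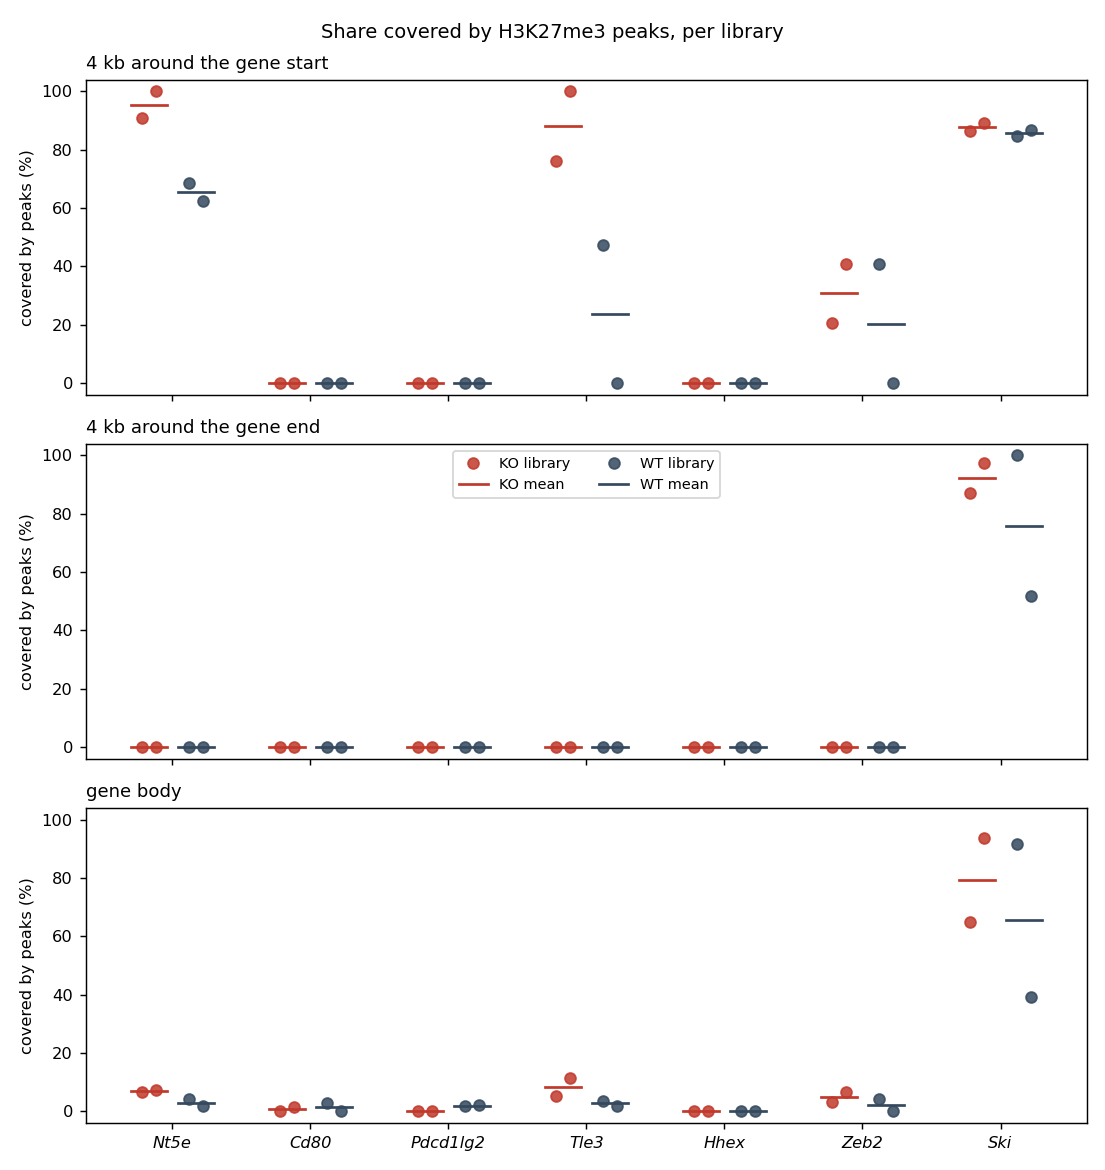
Share of each window or gene body covered by H3K27me3 peaks (%), with 1 point per library and a line at the mean of the 2 libraries, KO in red and WT in dark. At the gene start, KO and WT separate at Nt5e and Tle3 and overlap at Zeb2 and Ski, while Cd80, Pdcd1lg2 and Hhex stand at 0% in all 4 libraries.

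Of the nuclear factors, Hhex was the one with no mark at all. The gene, a homeodomain repressor on chromosome 19 (37434841 to 37440731), had no peak over its body or 20 kb flanks in any library. The stretch without peaks around its start was 289 kb in KO replicate 1, 131 kb in KO replicate 2, 289 kb in WT replicate 1 and 290 kb in WT replicate 2. No difference between genotypes could be measured there, and a lack of peaks does not give a level of the mark below the calling threshold.

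Tle3, a Groucho family corepressor that binds DNA through partners such as Hhex, had the largest difference of the 7 genes. It lies on chromosome 9 at 61372326 to 61418497 (gene ID 21887). In the 4000 bp around its start, peaks covered 76.0% and 100% in the KO libraries, against 47.5% and 0% in the WT libraries. Mean coverage was 88.0% ± 16.99 in KO, against 23.8% ± 33.6 in WT (SD, n = 2). The groups did not overlap, although the WT libraries differed from each other by 47.5 points. KO lay above WT in this way at 14.6% of gene starts with coverage. The difference was 64.2 points with an SE of 22.3, a 95% interval of -7.64 to 136 and a limma adjusted p of 0.907. Of 10279 gene starts with coverage, 6 had a larger difference. It was 40.5 points without WT replicate 2 and 27.8 points with 5000 bp to each side, a width at which the KO pair lay above the WT pair at 15.7% of starts with coverage.

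The mark around the Tle3 start was in longer pieces in KO than in WT. In KO replicate 1 a peak ran from -1.04 to 2.47 kb, with an uncovered stretch before it from -2.20 kb, and in KO replicate 2 a single peak of 19435 bp ran from -16.4 to 3.08 kb. WT replicate 1 had 3 short peaks of 695, 1017 and 722 bp there, of which the second covered the start itself. WT replicate 2 had no peak from -2.45 to 2.03 kb, a stretch of 4.48 kb. Farther upstream the mark was present in all libraries, in the KO libraries as peaks of up to 11460 and 19435 bp and in the WT libraries as peaks of up to 12445 and 4128 bp. At equal covered length the start had 76.0% and 100% in KO and 0.025% and 0% in WT, a difference of 88.0 points with a limma adjusted p of 0.698. That reduction kept 21192 of the 87486 peaks of WT replicate 1 and dropped its 3 short peaks at the start, so the larger difference came with their removal. With each library's covered length added to the model the difference was 52.4 points.

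**Figure D3:**
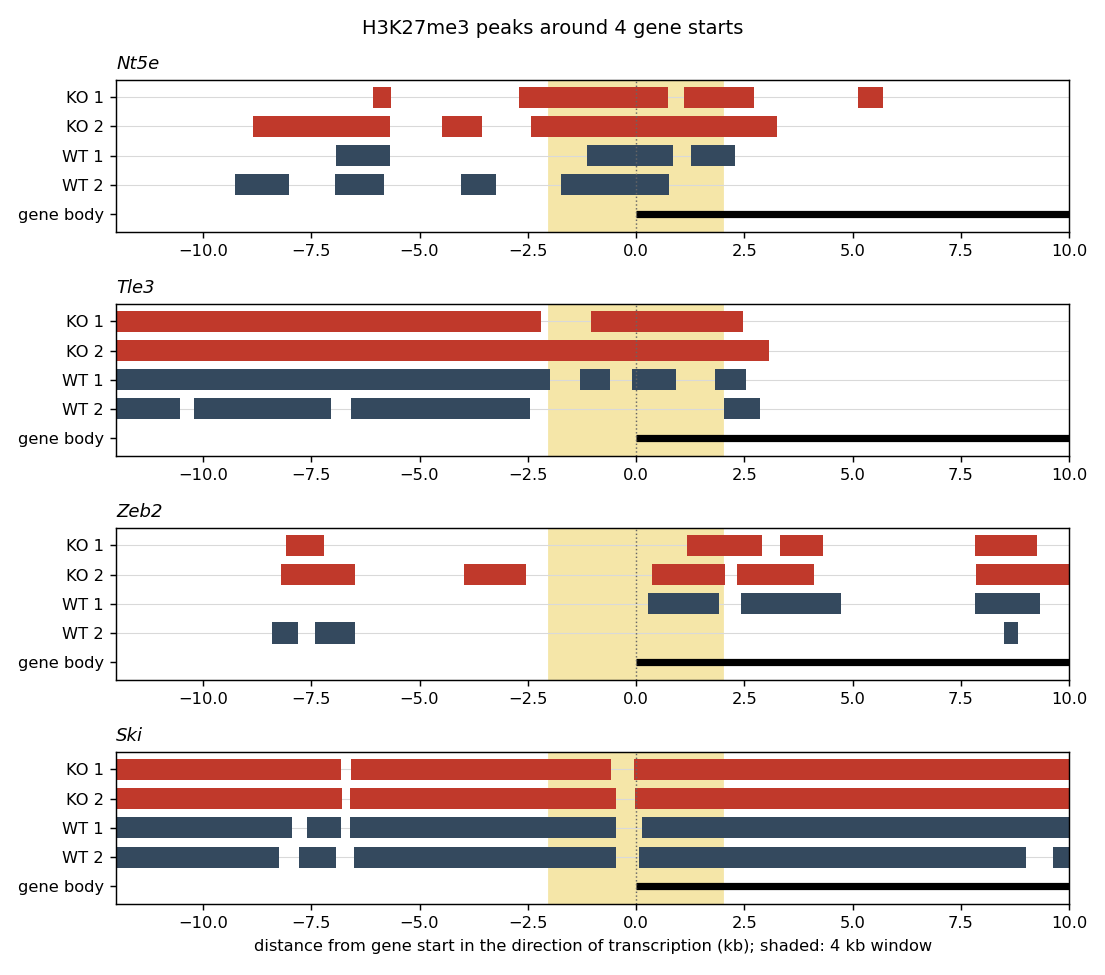
H3K27me3 peaks from 12 kb upstream to 10 kb downstream of 4 gene starts in the KO (red) and WT (dark) libraries, with the 4 kb window shaded and the gene body in black. The Tle3 start lies within a peak in both KO libraries and in WT replicate 1. In WT replicate 2 it lies in a 4.48 kb stretch without peaks. The Ski start has a short break in all 4 libraries.

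Of 4 domain edges beside Tle3, 2 lay farther out in both KO libraries and 2 overlapped between the genotypes. Peaks of a library at most 3000 bp apart were chained into a domain. Where a library had several domains at a place, its first and last covered base there were taken as the edges. The upstream edge of the domain at the start stood at -21.8 and -83.5 kb in KO, against -14.4 kb in each WT library (exact permutation p = 0.333, the smallest possible with n = 2). Such an edge marks a break of more than 3000 bp and not the end of the mark. Over the 86.6 kb between the outermost edges of all libraries, peaks covered 51.3 and 77.3 kb in KO and 51.4 and 35.9 kb in WT. WT peaks thus also lay upstream of -14.4 kb. A second block beyond the gene end came as near as 49.2 and 48.3 kb from the start in KO, against 52.7 and 52.8 kb in WT, so both KO libraries came closer to the gene. The downstream edge at the start overlapped, at 2.47 and 3.08 kb in KO and 2.54 and 2.87 kb in WT. WT replicate 2 had 2 domains there, to either side of the start, and its 2.87 kb is the end of a separate peak of 844 bp. The far edge of the second block also overlapped, at 145 and 168 kb in KO and 166 and 71.8 kb in WT. At equal covered length, and when peaks were chained at 1000 bp, that near edge stood at 52.97 and 54.03 kb in KO and at 52.7 and 52.8 kb in WT, so the order turned. The upstream edge kept its order, at -21.8 and -20.2 kb in KO and -14.4 kb in each WT library at equal covered length, and at -16.1 and -16.4 kb in KO and -14.4 kb in each WT library when chained at 1000 bp. Chained at 10000 bp, the groups overlapped at the upstream edge. Bases covered in both KO and neither WT came to 7730 bp over Tle3 and its flanks in the full lists, in 9 stretches. Of these, 3273 bp lay upstream of the start and a stretch of 896 bp inside the gene. The rest lay beyond the gene end. The 7730 bp are 19.05% of the bases covered in any library over Tle3 and its flanks, against 3.85% over the genome. Bases covered in both WT and neither KO came to 180 bp, or 0.443%, against 1.21% over the genome. The gene itself was mostly bare, with 5.35% and 11.3% of the body covered in KO and 3.55% and 1.83% in WT.

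Ski, a corepressor of SMAD proteins in TGF-beta signalling, was the most heavily marked of the 7 genes. It lies on chromosome 4 at 155154075 to 155222535 on the minus strand (gene ID 20481). Peaks covered 64.8% and 93.7% of its 68.5 kb body in the KO libraries, against 91.6% and 39.2% in the WT libraries. The groups overlapped, and these values stood in the order of the libraries' covered length. More of the body was covered than in 90.8% to 94.6% of all genes in each library. The difference was 13.8 points with an SE of 26.0 and a limma adjusted p of 1. It turned to -12.4 points without WT replicate 2 and to -0.581 points without KO replicate 2. At equal covered length the body had 56.4% and 70.9% in KO and 79.8% and 39.2% in WT, a difference of 4.14 points. The longest peak over the gene and its flanks was 18233 and 22782 bp in KO and 21559 and 9856 bp in WT.

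At the Ski start the 4 values lay close together. The 4000 bp window had 86.6% and 89.3% in KO and 84.85% and 86.8% in WT, a difference of 2.10 points with a 95% interval of -11.4 to 15.6 (limma adjusted p = 0.956). The part not covered was a break just upstream of the start, 0.538 and 0.429 kb long in KO and 0.607 and 0.528 kb long in WT. Coverage resumed before the start in KO, at -0.042 and -0.024 kb, and after it in WT, at 0.139 and 0.073 kb, so the capitals in the Ski sequence run to its 3′ end. At the gene end the window had 87.25% and 97.6% in KO and 100% and 51.9% in WT. Peaks also lay over the neighbouring gene Morn1, 8.57 kb away, of whose part within the 20 kb flank 54.7% and 96.1% were covered in KO and 63.8% and 5.64% in WT.

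Zeb2, a zinc-finger repressor active in several blood lineages, held a few short peaks near its start that did not separate the genotypes. It lies on chromosome 2 at 44983512 to 45117442 on the minus strand (gene ID 24136). The 4000 bp window had 20.7% and 40.85% in KO and 40.7% and 0% in WT, a difference of 10.4 points with an SE of 19.1 (limma adjusted p = 0.949). That difference was -9.91 points without WT replicate 2 and -2.225 points with 1000 bp to each side. At equal covered length the window had 20.7% in KO replicate 1 and 0% in KO replicate 2 and in each WT library. The base at the start itself was uncovered in all 4 libraries, and the mark began 1.17 and 0.366 kb downstream in KO and 0.277 and 8.501 kb downstream in WT. A peak 7.8 kb inside the gene recurred in 3 libraries with almost the same near edge, at 7.83 and 7.85 kb in KO and at 7.82 kb in WT replicate 1, and began at 8.501 kb in WT replicate 2. It ended at 9.26 and 12.4 kb in KO and at 9.32 and 8.82 kb in WT. Of the 4 Zeb2 promoters in the table, the pair that overlap each other about 4 kb inside the annotated gene lay in peaks of both KO libraries and WT replicate 1, and the other two had no coverage in any library. Bases covered in both KO and neither WT came to 813 bp over Zeb2 and 4643 bp over Ski, flanks included, which is 4.81% and 4.36% of the bases covered in any library and near the 3.85% over the genome.

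Read together, 5 of the 14 ends of the 7 genes had coverage in any library, and at 2 of those the KO pair lay above the WT pair, the starts of Nt5e and Tle3. Over all genes this pattern held at 13.9% of 20791 gene-end windows with coverage and at 6.58% of all 43774. The reverse order held at none of the 5, against 2.46% of windows with coverage and 1.17% of all. Among gene starts with coverage the shares were 14.6% above and 2.41% below, and 12.1% above at equal covered length, where the same 2 of the 7 genes showed it. The median difference of the 5 ends was 16.5 points, against 6.61 points over all windows with coverage. That median is the value of the Ski gene end, where the groups overlapped. It was -7.59 points there without WT replicate 2 and 6.53 points with covered length in the model. The 7 genes were chosen with earlier results of these data known, so these counts are a description and not a test. With limma, no window passed an adjusted p of 0.05 in either direction (0% called higher and 0% lower in KO). Without adjustment, limma put 700 windows (3.37%) under that threshold as higher in KO, the Nt5e start among them, and 109 (0.524%) as lower. Over gene bodies 2 were called higher in KO (0.0145%) and 0 lower, and none of the 7 was among them. With 2 mice per genotype, a p above the threshold does not show that the mark was the same.

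**Figure D4:**
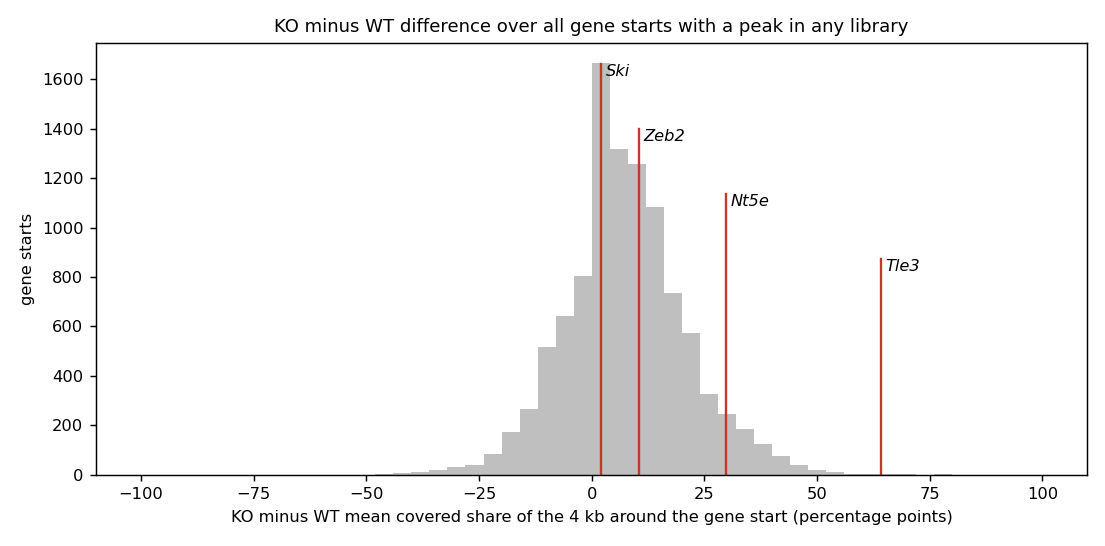
Histogram of the KO minus WT difference in covered share (percentage points) of the 4 kb around the start for 10279 genes with coverage in any library and a known strand. Red lines mark the members with coverage there: Ski at 2.10, Zeb2 at 10.4, Nt5e at 29.9 and Tle3 at 64.2 points, and their heights carry no value.

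No end of the 7 genes passed from unmarked to marked in the strict sense. By the 25% rule, 4 and 5 of the 14 ends were marked in KO and 5 and 3 in WT. Over all ends the shares were 22.6% and 33.1% in KO and 28.8% and 17.3% in WT. Of the 14, 3 were marked in all 4 libraries, as were 15.5% of all ends. None was marked in both KO and neither WT, a pattern that held at 0.923% of all ends, since the Tle3 start was also marked in WT replicate 1. None was marked in both WT and neither KO, against 0.16% of all ends. At equal covered length the Tle3 start was marked in both KO and neither WT, after the short peaks of WT replicate 1 there were dropped. That pattern then held at 0.697% of gene starts.

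The total length covered over the 7 genes with 20 kb flanks did not separate the genotypes. It was 122 and 167 kb in KO and 136 and 80.3 kb in WT, with means of 144 ± 31.3 kb in KO, against 108 ± 39.0 kb in WT (SD, n = 2, exact two-sided permutation p = 0.667, smallest possible 0.333). Ski alone held 77.8 and 102.9 kb of it in KO and 97.3 and 51.9 kb in WT. Per Mb that each library covered genome-wide, the total came to 851 and 706 bp in KO and 637 and 792 bp in WT. Bases covered in both KO and neither WT made up 8.03% of the bases covered in any library over the 7 windows, against 3.85% over the genome. The reverse made up 0.377%, against 1.21%. Of the 14498 bp covered in both KO and neither WT, Tle3 held 7730 bp and Ski 4643 bp. Of 14 domain edges at 7 places with peaks in all libraries, both KO libraries reached farther than both WT libraries at 4 and the reverse held at 0. By the same rule over all genes, KO reached farther at 18.8% of 39102 edges and WT at 7%, where genes that share a domain count its edges more than once. The 4 were the downstream edge at the Nt5e start, the 2 edges at Tle3 given above, and the near edge of a peak beyond the Zeb2 gene end, at 136.7 and 137.6 kb in KO and 137.8 kb in each WT library. The Nt5e edge stood at 5.70 and 3.26 kb in KO and at 2.28 and 0.757 kb in WT, and the groups overlapped there at equal covered length. At equal covered length each count was 1, of 12 edges, against 16.2% and 13.3% over all genes.

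Other genes of the memory program were taken as a list of 20, among them receptors, homing molecules and survival genes. Of their 40 ends, 24 had coverage, 0 were called in either direction (smallest limma adjusted p = 0.907), the KO pair lay above the WT pair at 9 and below it at 0, and the median difference was 15.5 points. Over all windows with coverage these were 13.9%, 2.46% and 6.61 points. The list was chosen with earlier results of these data known, so its counts are a description and not a test. The 9 include both ends of Klf2 and both of Tbx21, and the counts are from the full lists, not those of equal covered length. The 3 with the largest differences were Bcl2, which protects cells from apoptosis, Klf2, a factor that drives exit from lymphoid tissue, and Tbx21, which encodes T-bet. The Bcl2 start had 84.1% and 100% in KO and 92.7% and 12.8% in WT. The window at the Klf2 gene end had 93.25% and 100% in KO and 91.1% and 23.6% in WT. The window at the Tbx21 gene end had 7.975% and 69.0% in KO and 0% in each WT library. At these 3 windows 1 library stood far from the other 3, WT replicate 2 at Bcl2 and Klf2 and KO replicate 2 at Tbx21. At the Klf2 start no library stood so far apart, with 80.4% and 100% in KO and 56.3% and 46.3% in WT, a difference of 38.9 points (limma adjusted p = 0.907).

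Partners and relatives of the 7 genes formed a list of 18, such as the receptors of their ligands and the other Tle and Smad genes. Of their 36 ends, 24 had coverage, 0 were called in either direction, the KO pair lay above the WT pair at 3 and below it at 0, and the median difference was 5.59 points, beside the same 13.9%, 2.46% and 6.61 points over all windows. The start of Tle1, a relative of Tle3, had 42.45% and 82.3% in KO and 63.3% and 0% in WT. The start of Smad3, which carries TGF-beta signals to the nucleus, had 95.8% and 100% in KO and 76.2% and 63.85% in WT, a difference of 27.9 points (SE 6.68, limma adjusted p = 0.907). The lower-coordinate end of Adora2a, an adenosine receptor gene, had 78.25% and 100% in KO and 72.55% and 55.2% in WT. The groups overlapped at Tle1 and did not at Smad3 and Adora2a.

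By coverage at both ends and over the body in the 4 libraries, 12 values per gene, the genes most like each member were found. Nt5e was nearest to Elapor2 and Crim1, with mean absolute differences of 2.24 and 2.84 points. Tle3 was nearest to Slc36a4 and Bdnf, at 3.65 and 3.74 points. Zeb2 was nearest to Cln3 and Lrat, at 1.03 and 1.06 points, and Ski to Ccdc92b and Selenon, at 4.36 and 5.47 points. The nearly bare genes had no particular likeness, since 6755 genes lay within 1 point of Cd80 and 6772 within 1 point of Pdcd1lg2, with Ppa2 and Iqck and with Net1 and Vit nearest. Hhex, at 0% throughout, was identical in this measure to 5986 genes.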

How the data were processed

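The 4 deposited peak lists, 1 per library and not pooled, give each peak's position and its total and highest signal (coverage). The authors' signal scale is unknown, so signal was used only to rank peaks within a list, and read depth is unknown. Per the submitters' processing notes, the tools included SEACR, deepTools, Bowtie2 2.4.2, SAMtools 1.11 and Trim Galore 0.6.6, with mm10 as the build. Settings, control and peak threshold were not given in the sources used here.

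Only the autosomes and the sex chromosomes were used. Genes, strand (known for 17492 of 21887) and promoters came from RefSeq GRCm38.p6. Windows and bodies with coverage in any library were compared in all 4 libraries with limma 3.58.1 (lmFit, eBayes without trend, R 4.3.3), with Benjamini-Hochberg adjustment over the whole table and a threshold of 0.05. Coverage was computed with Python 3.11.15 and pandas 2.3.3, and both steps were tested on simulated data. Recovery of known changes by limma was required only at a spread set in advance. The tests therefore do not give its power at the spread of these libraries. Replicate numbers only name libraries. For equal covered length, the peaks of highest signal were kept until each list covered as much as the shortest. All 7 genes were named. From the other lists, the 3 genes with the largest end difference were named. Likeness left out predicted genes and genes within 100 kb. Members and lists were chosen with earlier results of these data known. The strand-based gene starts, base counts and domain edges of all genes were added after the data were seen.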

Additional observations from a re-analysis of the deposited data

How the results depend on the processing

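The differences at the starts of Nt5e, Tle3 and Ski and over the bodies of Nt5e, Tle3, Zeb2 and Pdcd1lg2 kept their sign in every alternative run, and no value of the 7 genes passed the threshold in any. Leaving out single libraries moved the Nt5e start between 25.3 and 34.5 points and the Tle3 start between 40.5 and 88.0. It moved the Zeb2 start between -9.91 and 30.8, the Ski end between -7.59 and 40.5, the Cd80 body between -2.20 and 0.788 (0.0818 without KO replicate 1) and the Ski body between -12.4 and 40.1 (-0.581 without KO replicate 2). The cause was not tested. The Zeb2 start was -2.225 points with 1000 bp to each side. Without a filter, 22 gene ends were called higher and 5 lower in KO, and 8 bodies higher. The 2 bodies called higher fell to 0 without any single library, at equal covered length (where 1 was lower), with at least 25% in any library, with covered length as a covariate and with trend.

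Member ends with both KO above both WT numbered 2 to 4 without single libraries, 4 without KO replicate 1 and 4 without WT replicate 1, 1 with 1000 bp and 4 with 5000 bp to each side. Ends marked in KO alone numbered 0 to 1 without single libraries, and 1 at equal covered length and with marked set at 50%, each time the Tle3 start. Edges reached farther by KO numbered 4 to 10 without single libraries, 10 without KO replicate 1 and 10 without WT replicate 1, and 1 at equal covered length. A group then left with 1 library meets such patterns more easily. The KO excess in covered length over the 7 windows was 36.6 kb, 8.97 to 64.2 kb without single libraries and 16.0 to 57.6 kb otherwise. No paired analysis was possible because the labels give no replicate numbers. With no counts in the lists, the depth limit is unknown.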
